A study of Homo sapiens with 48 samples.

Results

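The genes described here are 9 regulators of transcript elongation by RNA polymerase II. They were chosen by name, with earlier results of these data known, from the 58721 genes listed in both deposited expression tables. They are CDK9, CCNT1 and CCNT2, which make up the kinase P-TEFb, HEXIM1 and LARP7 of the 7SK particle that holds P-TEFb inactive, ELL and ELL2 of the super elongation complex, the acetyl-lysine reader BRD2, and SUPT5H, a subunit of the pausing and elongation factor DSIF. All 9 passed the filters on low values in both tables, so that none was lost before testing. GENCODE 29 places another annotated gene over part of every member except CCNT1 and SUPT5H, mostly antisense RNAs (such as AC138150.1 over HEXIM1) and microRNAs, and the sources used here do not say whether counting used strand, so that reads of such pairs may not be separated. The values come from 48 RNA-seq libraries of DLD-1, a human colorectal cancer cell line.

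P-TEFb consists of the kinase CDK9 and a T-type cyclin, and it releases RNA polymerase II from pausing near the promoter by phosphorylating DSIF, the negative elongation factor NELF and the polymerase itself. Much of the kinase is kept in reserve on the 7SK non-coding RNA, where HEXIM1 inhibits it and LARP7 protects the RNA, and HEXIM1 transcription is known to follow P-TEFb release. CCR4-NOT, the complex perturbed here, shortens the poly(A) tails of mRNAs. CNOT1 is its scaffold, and CNOT4 is an E3 ubiquitin ligase that associates with it.

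The study compared 3 lines, all of them carrying the plant auxin receptor TIR1 (genotype TIR1+). The parental line has no tagged gene, whereas CNOT1-AID cells carry an auxin-inducible degron on CNOT1 and CNOT4-AID cells one on CNOT4, each fused at the gene itself so that auxin removes the tagged protein. For steady-state levels each line was left untreated or given 1 mM auxin for 8 h or 24 h, with untreated cells at both times and 2 libraries in each of the 12 groups. For decay, all 3 lines, the parental one included, received 1 mM auxin for 2 h and then 1 µM triptolide, an inhibitor of transcription initiation, for 0, 3, 6 or 12 h, again with 2 libraries in each of 12 groups. The labels do not say whether a tagged line is a single clone or whether the libraries of a group came from separate cultures, so p-values reflect how far these libraries vary, and that variation may be technical. Protein levels were not analysed here, and since the degron acts on the protein, the CNOT1 and CNOT4 mRNAs do not check the labels.

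The triptolide libraries held 18216427 to 26723618 counts each, and the steady-state values are length-scaled transcript abundances (TPM), whose depth is unknown. Of 12 colon epithelium markers, 10 reached a mean of 1 TPM in steady state (VIL1 and GPA33 did not), against 1 of 4 blood markers (CD14, 1.00 TPM) and none of 4 fibroblast or 4 endothelial markers. Protein-coding genes took 51.7% to 54.7% of TPM in auxin-treated CNOT1-AID libraries 30.6% in CNOT4-AID auxin 8 h replicate 1 and 37.8% to 47.8% in the others. The parental 0 h pair differed more between its libraries (SD of log2 differences 0.82) than the other triptolide pairs (0.49 to 0.62), and ERCC spike-in RNA took 2.25% and 3.92% of counts in the CNOT4-AID pair at 12 h of triptolide, against 0.941% to 2.11% elsewhere. In bulk RNA, fewer cells of a kind and less RNA per cell cannot be told apart.

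Sequence features that bear on synthesis and decay of these mRNAs are shown for the genes that the results below turn on. HEXIM1 has a single exon (chromosome 17, 45148502 to 45152101, plus strand, GRCh38), and the 250 bases before its RefSeq start site (GRCh38.p14, plus strand, chr17:45148225-45148474) are printed because its mRNA rose strongly without CNOT1. Capitals mark a TATAAA match 29 bases before the start and both CCAAT matches, of which the one written ATTGG lies on the minus strand.
HEXIM1 promoter: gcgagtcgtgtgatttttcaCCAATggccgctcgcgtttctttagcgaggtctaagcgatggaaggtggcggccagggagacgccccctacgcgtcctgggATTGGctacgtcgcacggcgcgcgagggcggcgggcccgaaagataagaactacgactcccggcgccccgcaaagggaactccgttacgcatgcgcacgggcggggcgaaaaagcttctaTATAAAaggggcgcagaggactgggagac
Searched on both strands, TATAAA occurred in 10.7% of 35116 RefSeq promoters of this length, and of the 8 members with an entry HEXIM1 was the one that held it. CCAAT occurred in 32.0% of promoters and in those of HEXIM1, CCNT1, CCNT2 and LARP7. The GC box GGGCGG, which overlaps neither, occurred in 42.6% of promoters and in a promoter of each of the 8 members with an entry. Some members have several promoters, and a promoter of CCNT1 and another of BRD2 held no GC box. A member counts here if any of its promoters matched, whereas the percentages are per promoter, so the counts are unlike. A match is a run of letters and not a tested site.

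The pentamer ATTTA, the core of AU-rich elements through which RNA-binding proteins can recruit CCR4-NOT, was counted in 3′ UTRs of GENCODE 29. The windows below are 25 bases of the transcript strand with ATTTA in capitals, and they contrast ELL and ELL2, relatives that moved in opposite directions, with CCNT1 and HEXIM1. Each window comes from the first place in its 3′ UTR with the most ATTTA in 25 bases, so it is not typical of the whole 3′ UTR.
HEXIM1 3′ UTR (chr17:45150402-45150426, plus strand): ggtttcgtaaATTTAgctatatgta
CCNT1 3′ UTR (chr12:48690954-48690978, minus strand): cATTTAgggcttctATTTATTTAga
ELL 3′ UTR (chr19:18444675-18444699, minus strand): gagagaggATTTATTTAaaaaaata
ELL2 3′ UTR (chr5:95888814-95888838, minus strand): ttaagcttATTTATTTAaaattcca
The windows of ELL, ELL2 and CCNT1 each hold an overlapping ATTTATTTA pair, and that of HEXIM1 does not. Over the whole 3′ UTR, HEXIM1 held 7 ATTTA in 1831 nt, CCNT1 15 in 4569 nt, CCNT2 17 in 4694 nt, ELL2 13 in 3773 nt, ELL 3 in 2089 nt, CDK9 2 in 1244 nt, BRD2 2 in 787 nt and LARP7 1 in 259 nt. SUPT5H held none in 271 nt. Of 11527 steady-state genes with a 3′ UTR of at least 50 nt, 71.5% held at least 1 ATTTA, with a median of 1.65 per 1000 nt. Among the members it ran from 0 (SUPT5H) through 1.44 (ELL), 1.61 (CDK9), 2.54 (BRD2), 3.28 (CCNT1), 3.45 (ELL2), 3.62 (CCNT2) and 3.82 (HEXIM1) to 3.86 per 1000 nt (LARP7). No relation between this density and the changes was tested.

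Over the 12 untreated libraries the members ranked from BRD2 (94.96 ± 9.07 TPM, SD, n = 12) through SUPT5H (64.4 ± 3.67), CDK9 (30.8 ± 1.67), HEXIM1 (18.8 ± 1.32), CCNT1 (16.2 ± 2.09), CCNT2 (12.9 ± 2.64), LARP7 (8.18 ± 1.95) and ELL2 (7.62 ± 1.30) to ELL (5.43 ± 0.52). TPM is scaled for transcript length, so these levels can be set side by side. HEXIM1 and CCNT1 overlapped in range, as did CCNT1 with CCNT2, CCNT2 with LARP7, LARP7 with ELL2, and ELL2 with ELL. BRD2, SUPT5H and CDK9 stood apart from every neighbour. The kinase subunit was thus above each of its cyclins in all 12 libraries.

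Auxin in the CNOT1-AID line raised both the kinase and its inhibitor. HEXIM1 stood at 17.6 and 20.0 TPM in untreated cells and at 68.1 and 69.9 TPM after 8 h of auxin. At 24 h it stood at 19.9 and 18.8 TPM untreated and at 81.6 and 82.0 TPM with auxin. The 4 auxin-treated CNOT1-AID libraries (68.1 to 82.0 TPM) lay far above the other 20 (12.0 to 21.8 TPM). How many of all genes separate in this way was not counted, here or for the members below. On the log2 scale of TMM-scaled TPM plus 0.5, used for all steady-state differences, HEXIM1 rose by 1.56 ± 0.08 (SE; 2.94-fold; limma, adjusted p = 2.9e-11) at 8 h and by 1.79 ± 0.08 (3.46-fold, adjusted p = 2.2e-12) at 24 h. Fitted folds are below the ratios of TPM because the median gene also rose in these libraries, by 0.26 at 8 h and 0.21 at 24 h without that scaling and by 0.41 and 0.30 when scaled to ERCC spike-ins. Directions are therefore relative to the median gene.

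CDK9, the kinase, went from 28.8 and 30.1 TPM to 79.5 and 88.5 TPM at 8 h, and from 33.2 and 29.2 TPM to 111.7 and 107 TPM at 24 h. The other 20 libraries held 22.7 to 33.2 TPM, below every auxin-treated CNOT1-AID library. The rise was 1.20 ± 0.06 (2.3-fold) at 8 h and 1.53 ± 0.06 (2.89-fold) at 24 h. CCNT1, the main cyclin partner, went from 14.1 and 15.9 TPM to 54.8 and 52.5 TPM at 8 h, and from 17.7 and 16.2 TPM to 60.9 and 54.0 TPM at 24 h. These libraries too lay above the other 20 (10.5 to 19.1 TPM), and CCNT1 rose by 1.51 ± 0.08 and 1.47 ± 0.08 (2.85-fold and 2.77-fold).

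CCNT2, the alternative cyclin, followed another course. It stood at 8.58 and 16.9 TPM in untreated CNOT1-AID cells at 8 h and at 38.9 and 38.6 TPM with auxin. At 24 h it was at 15.1 and 14.2 TPM untreated and at 24.1 and 19.4 TPM with auxin. The untreated 8 h pair marks both ends of the range outside the auxin-treated CNOT1-AID libraries (8.58 to 16.9 TPM in 20 libraries), and those 4 did not overlap with it. CCNT2 rose by 1.35 ± 0.16 (2.55-fold, limma, adjusted p = 1.2e-06) at 8 h, and at 24 h its difference of 0.29 ± 0.16 did not pass (adjusted p = 0.11), although it did with ERCC scaling (0.64), without scaling (0.55) and in a fit of only the 2 untreated and 2 auxin-treated CNOT1-AID libraries of 24 h (0.24). The fall in its response from 8 h to 24 h, -1.06 ± 0.22, was itself past the threshold (adjusted p = 0.0015), and it ranged from -1.44 to -0.68 when single libraries were left out.

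**Figure D1:**
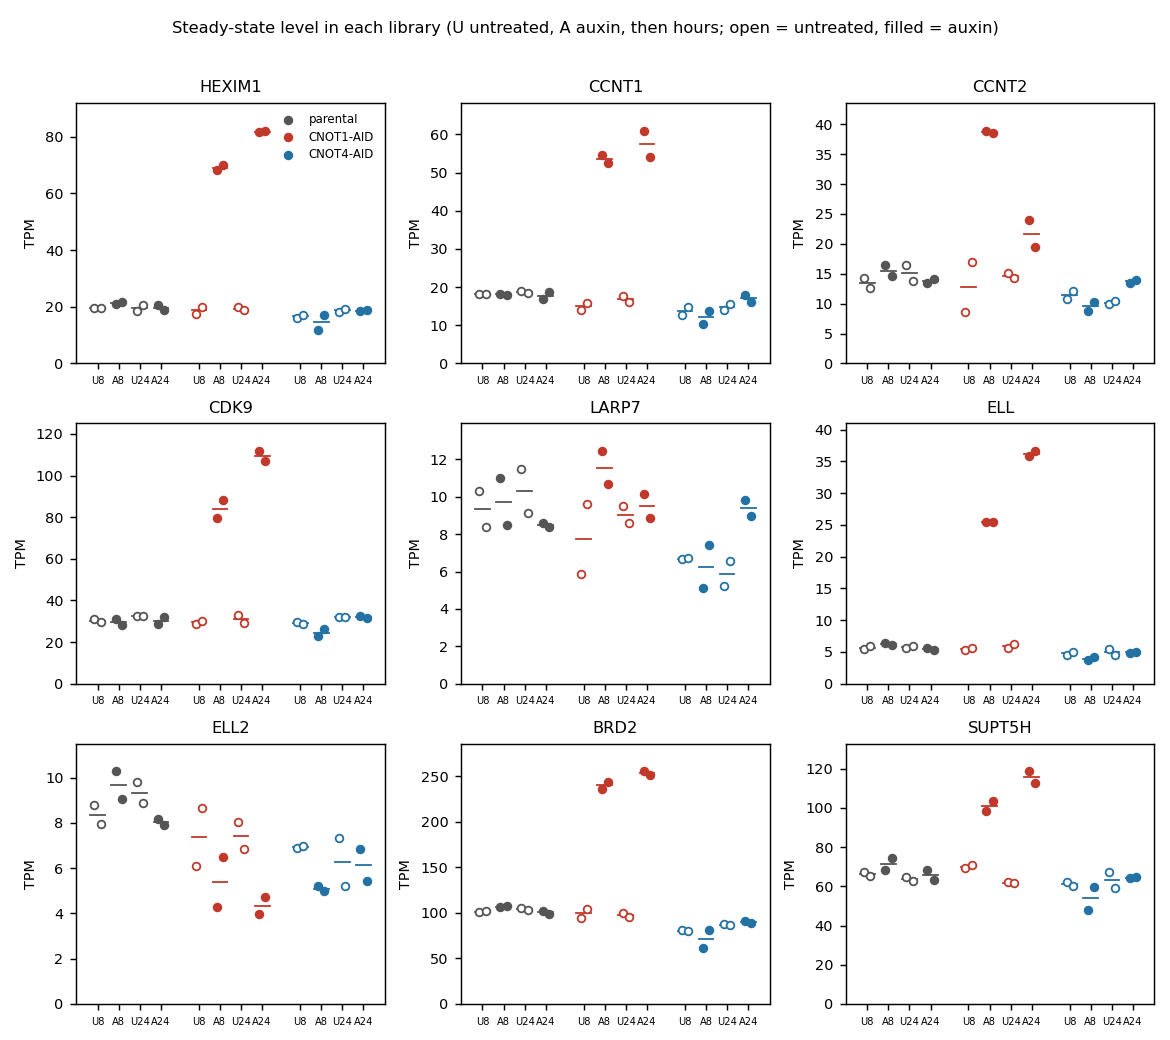
TPM of each gene (y axis, from 0) in every steady-state library, by line, treatment and hours (x axis: U untreated, A auxin, then the hours); open points are untreated and filled points auxin-treated libraries, and short bars are means of 2. The 4 auxin-treated CNOT1-AID libraries lie above the rest for HEXIM1, CCNT1, CCNT2, CDK9, ELL, BRD2 and SUPT5H, and overlap with them for LARP7 and ELL2. The share of all genes that separate in this way was not counted.

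LARP7, which binds the end of the 7SK RNA, did not pass the threshold at either time over all libraries. It stood at 5.88 and 9.62 TPM untreated and 12.4 and 10.7 TPM with auxin at 8 h, and at 9.50 and 8.61 TPM against 10.2 and 8.85 TPM at 24 h. The auxin-treated libraries overlapped with the other 20 (5.11 to 11.5 TPM). Its differences were 0.30 ± 0.15 (adjusted p = 0.1) and -0.18 ± 0.15 (adjusted p = 0.3) in the limma fit. At 8 h LARP7 passed with ERCC scaling (0.75), without scaling (0.58) and without CNOT1-AID untreated 8 h replicate 2 (0.54). In the other direction it passed at 24 h in a fit of only the 4 CNOT1-AID libraries of that time (-0.23).

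The ELL relatives moved apart. ELL, which stimulates the polymerase within the super elongation complex, went from 5.25 and 5.57 TPM to 25.5 and 25.4 TPM at 8 h. At 24 h it went from 5.69 and 6.20 TPM to 35.8 and 36.6 TPM, while no library outside this group exceeded 6.34 TPM. ELL rose by 1.85 ± 0.09 (3.6-fold) and 2.25 ± 0.09 (4.75-fold), the largest rise of the 9 members at both times, and its response was larger at 24 h by 0.40 ± 0.13 (limma, adjusted p = 0.026). At 24 h its change exceeded that of 98.3% of the genes tested.

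ELL2, its close relative in the same complex, stood at 6.08 and 8.66 TPM untreated and at 4.30 and 6.48 TPM with auxin at 8 h. At 24 h it stood at 8.02 and 6.85 TPM untreated and at 3.97 and 4.72 TPM with auxin. The 8 h groups overlapped and the 24 h groups did not. ELL2 fell by 0.69 ± 0.18 (adjusted p = 0.0029) at 8 h and by 0.94 ± 0.18 (adjusted p = 0.00016) at 24 h in the limma fit. Its 8 h fall did not pass with ERCC scaling (-0.26), without scaling (-0.42) or without CNOT1-AID auxin 8 h replicate 1 (-0.42).

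BRD2, the most abundant member, went from 94.7 and 104.2 TPM to 236 and 243 TPM at 8 h, and from 99.7 and 95.1 TPM to 255 and 251 TPM at 24 h. The other 20 libraries held 61.6 to 106.9 TPM, below every one of these 4. BRD2 rose by 0.97 ± 0.04 (1.96-fold) and 1.11 ± 0.04 (2.16-fold). SUPT5H, the substrate of P-TEFb in this list, went from 69.2 and 70.7 TPM to 98.2 and 103.5 TPM at 8 h, and from 62.0 and 61.8 TPM to 118.6 and 112.8 TPM at 24 h. Relative to the median gene SUPT5H rose by 0.23 ± 0.07 (1.17-fold, adjusted p = 0.0068) at 8 h and by 0.64 ± 0.07 (1.55-fold) at 24 h. The 8 h call of SUPT5H was lost without CNOT1-AID untreated 8 h replicate 2 (0.15), without CNOT1-AID auxin 8 h replicate 2 (0.19) and in a fit of only the 4 CNOT1-AID libraries of 8 h (0.21).

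In all, 7 of the 9 members passed as higher and 1 as lower at 8 h, and 6 as higher and 1 as lower at 24 h. Since the members were chosen with earlier results of these data known, such counts and medians are no test of the group. The background is wide, since 62.8% of the 14921 genes tested passed in either direction at 8 h (33.1% higher, 29.8% lower) and 71.5% at 24 h (36.7% higher, 34.8% lower). The response of 4 members differed between the times, with CDK9 (0.33), ELL and SUPT5H (0.41) larger at 24 h and CCNT2 smaller, beside 36.3% of genes in either direction, 17.4% as higher and 18.9% as lower. With ERCC scaling CCNT2 alone of these kept its call, with CDK9 at 0.22, ELL at 0.29 and SUPT5H at 0.30. The call of CDK9 was also lost without scaling (0.30) and without CNOT1-AID auxin 8 h replicate 1 (0.24). That of ELL was lost with a replicate block, with no filter on low values (0.38), and without CNOT1-AID untreated 8 h replicate 1, auxin 8 h replicate 1 or 2, untreated 24 h replicate 1 or auxin 24 h replicate 2 (0.31 to 0.39). LARP7 passed as smaller at 24 h without CNOT1-AID untreated 8 h replicate 2 (-0.73). The median over the 9 members was 1.20 at 8 h and 1.11 at 24 h, beside 0.00 and -0.01 over all genes tested. Whether a gene passed therefore says less here than the size of its change: ELL, HEXIM1, CCNT1 and CCNT2 each exceeded 95.1% or more of genes at 8 h, and SUPT5H exceeded 63.4%.

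In the parental line auxin moved none of the members past the threshold at 8 h, where 0.0201% of genes passed, or at 24 h, where 0 genes passed. HEXIM1 was at 19.6 and 19.6 TPM untreated and 21.1 and 21.8 TPM with auxin at 8 h, and its differences were 0.02 ± 0.08 at both times. The widest parental differences were those of LARP7 (-0.25 ± 0.15) and ELL2 (-0.19 ± 0.18) at 24 h. At an unadjusted p under 0.05 limma gave 1 member at 8 h (CDK9, -0.14 ± 0.06) and 0 at 24 h.

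In the CNOT4-AID line no member passed either, at 8 h (0.288% of genes) or at 24 h (4.51%). HEXIM1 was at 16.2 and 17.2 TPM untreated and at 12.0 and 17.0 TPM with auxin at 8 h, where CNOT4-AID auxin 8 h replicate 1 was the library with the low protein-coding share given above. Without that library the 8 h difference of HEXIM1 was 0.03 in place of -0.07, and no member passed. At 24 h HEXIM1 was at 18.3 and 19.4 TPM untreated and 18.4 and 19.0 TPM with auxin. The 8 h and 24 h differences ranged from -0.27 (ELL2) to 0.03 (LARP7) and from -0.14 (ELL2) to 0.52 (LARP7). At an unadjusted p under 0.05 limma gave 0 members at 8 h and 1 at 24 h, LARP7. That gene came nearest to the threshold at 24 h, with 5.24 and 6.55 TPM untreated against 9.82 and 8.97 TPM with auxin, groups that did not overlap (0.52 ± 0.15, limma, adjusted p = 0.064). It passed with ERCC scaling (0.78) and when genes needed 5 TPM (0.52).

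The difference between the lines' responses was tested directly. At 8 h the CNOT1-AID response exceeded the parental one for HEXIM1 (1.54 ± 0.11), CCNT1 (1.62 ± 0.11), CCNT2 (1.25 ± 0.22), CDK9 (1.34 ± 0.09), ELL (1.82 ± 0.13) and BRD2 (0.99 ± 0.06), and was below it for ELL2 (-0.79 ± 0.25). SUPT5H (0.23 ± 0.09, adjusted p = 0.056) and LARP7 (0.34 ± 0.22, adjusted p = 0.2) did not pass, though both passed with ERCC scaling (0.76 and 0.86). SUPT5H also passed without scaling (0.42), with no filter on low values (0.29) and without parental auxin 8 h replicate 2, CNOT1-AID untreated 8 h replicate 1 or CNOT1-AID auxin 8 h replicate 1 (0.27 to 0.31), and LARP7 without CNOT1-AID untreated 8 h replicate 2 (0.59). The ELL2 call was lost with ERCC scaling (-0.30), without scaling (-0.62), with no filter (-0.74) and without parental auxin 8 h replicate 1, CNOT1-AID untreated 8 h replicate 2 or CNOT1-AID auxin 8 h replicate 1 (-0.72 to -0.52). At this contrast 50.3% of genes passed, 27.0% as higher and 23.2% as lower. At 24 h, where 61.9% of genes passed (32.3% higher, 29.6% lower), the same held for HEXIM1 (1.77), CCNT1 (1.53), CDK9 (1.63), ELL (2.31), BRD2 (1.16), SUPT5H (0.58) and ELL2 (-0.75), and CCNT2 (0.40, adjusted p = 0.13) and LARP7 (0.07, adjusted p = 0.81) did not pass. The 24 h call of ELL2 was lost with ERCC scaling (-0.40), without scaling (-0.51) and without CNOT1-AID untreated 24 h replicate 1 or auxin 24 h replicate 1 (-0.68 and -0.60), whereas CCNT2 passed with ERCC scaling (0.77) and without scaling (0.67).

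Set against CNOT4-AID, 7 members differed at 8 h, all of them higher (51.6% of genes in either direction, 27.6% as higher). At 24 h 6 members were higher and 2 lower (62.2% of genes, 32.0% as higher and 30.1% as lower). The CNOT1-AID response was higher by 1.93 ± 0.11 for HEXIM1 and by 2.37 ± 0.13 for ELL at 24 h. LARP7 was lower in it by 0.70 ± 0.22 (limma, adjusted p = 0.01) at 24 h, with opposite signs in the lines, a difference not past the threshold with ERCC scaling (-0.62), without scaling (-0.57) or without CNOT4-AID untreated 24 h replicate 1 (-0.55). ELL2 did not pass at 8 h (-0.42 ± 0.25, limma, adjusted p = 0.18) and did at 24 h (-0.80 ± 0.25), a call lost without CNOT1-AID auxin 24 h replicate 1, CNOT4-AID untreated 24 h replicate 2 or CNOT4-AID auxin 24 h replicate 1 (-0.65 to -0.57). At 8 h ELL2 passed without CNOT1-AID auxin 8 h replicate 2 (-0.68) and LARP7 with ERCC scaling (0.78). The 8 h call of SUPT5H (0.27) was lost with a minimum of 5 TPM (0.20), with the replicate block, and without CNOT1-AID untreated 8 h replicate 2, CNOT1-AID auxin 8 h replicate 2, CNOT4-AID untreated 8 h replicate 1 or CNOT4-AID auxin 8 h replicate 1 or 2 (0.19 to 0.27). CNOT4-AID against parental gave no member at 8 h (0.0134% of genes) or 24 h (0.0670%), and at an unadjusted p under 0.05 limma gave 0 and 1 (LARP7). These comparisons share their CNOT1-AID and control libraries.

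**Figure D2:**
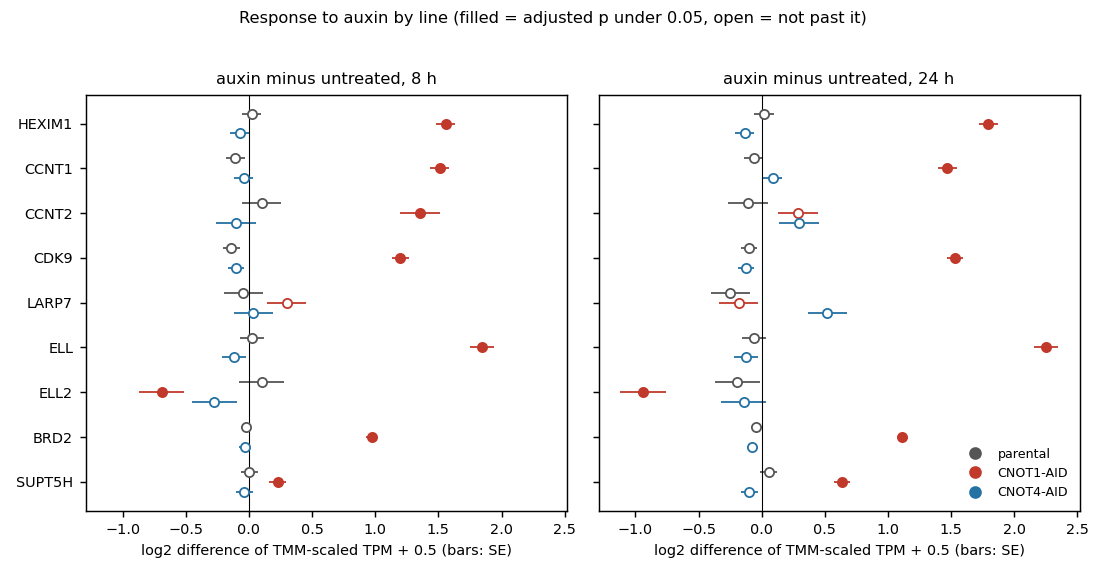
Auxin minus untreated for each gene and line at 8 h (left) and 24 h (right), in log2 units of TMM-scaled TPM plus 0.5 (x axis); points are estimates, bars their SE, filled points passed at an adjusted p under 0.05 (limma). The CNOT1-AID points reach from -0.94 (ELL2, 24 h) to 2.25 (ELL, 24 h), while every point of the other lines is open.

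Untreated cells of the lines were also compared. Between untreated CNOT1-AID and parental cells 1 member passed (20.7% of genes, 10.6% as lower), CCNT1 at -0.18 ± 0.05 (limma, adjusted p = 0.027), and this call was lost with ERCC scaling (-0.22), without scaling (-0.21), with no filter on low values (-0.17), and without parental untreated 8 h replicate 2, parental untreated 24 h replicate 1 or 2, CNOT1-AID untreated 8 h replicate 1 or CNOT1-AID untreated 24 h replicate 2 (-0.18 to -0.16). Without CNOT1-AID untreated 8 h replicate 2, CCNT2 (-0.25) and LARP7 (-0.32) passed as well. Between untreated CNOT4-AID and parental cells 3 passed, 2 as higher and 1 as lower (20.2% of genes, 10.5% and 9.74%): CDK9 at 0.23 ± 0.05, SUPT5H at 0.20 ± 0.05 and LARP7 at -0.35 ± 0.11. Without scaling more members passed, as counted in the closing sections, and CDK9 (-0.04), SUPT5H (-0.06) and ELL lay on the other side of 0. The LARP7 call was lost with ERCC scaling (-0.29), with no filter on low values (-0.34), and without parental untreated 8 h replicate 1, parental untreated 24 h replicate 1, CNOT4-AID untreated 8 h replicate 1 or 2, or CNOT4-AID untreated 24 h replicate 1 (-0.36 to -0.28).

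Under triptolide new transcripts are not started, so that the slope of a transcript over the hours reads its decay. Every library of this set received auxin, so slope differences between lines may include differences that were there before auxin. In the parental line HEXIM1 stood at 2447 and 1207 spike-in-scaled counts at 0 h, 1195 and 973 at 3 h, 621 and 1198 at 6 h, and 475 and 434 at 12 h. In CNOT1-AID cells it stood at 2539 and 2847, then 2671 and 3778, then 2207 and 2391, and at 12 h at 2909 and 2151. In CNOT4-AID cells the same times gave 2430 and 2246, 1030 and 1141, 552 and 600, and 363 and 174. At 12 h the mean was 24.9% of the 0 h mean in the parental line, 93.9% in CNOT1-AID and 11.5% in CNOT4-AID, and the 12 h libraries of CNOT1-AID did not overlap with those of the other lines. How many of all genes separate in this way at 12 h was not counted, here or for the members below.

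The fitted slope of HEXIM1, in log2 units per hour, was -0.161 ± 0.027 in the parental line (edgeR, adjusted p = 2.7e-06), -0.018 ± 0.026 in CNOT1-AID (adjusted p = 0.67) and -0.256 ± 0.027 in CNOT4-AID (adjusted p = 1.9e-11). The parental slope is a half-life of 6.23 h, with 5.34 h and 7.48 h at 1 SE to either side. This half-life and those below assume 1 constant rate from 0 h to 12 h.

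The P-TEFb subunits had parental slopes below that of the median gene (-0.068). CCNT1 fell from 2024 and 2124 scaled counts at 0 h to 287 and 229 at 12 h in the parental line, a half-life of 4.12 h (3.70 to 4.65 h at 1 SE), and went from 3799 and 3896 to 2611 and 2137 in CNOT1-AID. CCNT2 fell from 1455 and 1674 to 194 and 181 in the parental line, a half-life of 4.05 h (3.66 to 4.54 h), and went from 3032 and 3095 to 2634 and 2275 in CNOT1-AID. CDK9 fell from 2054 and 1050 to 314 and 332, a half-life of 5.49 h (4.84 to 6.35 h), and went from 2236 and 2529 to 2028 and 1625 in CNOT1-AID. For all 3 subunits the CNOT1-AID libraries at 12 h lay above the parental ones. The same held for SUPT5H (4475 and 3795 against 3719 and 3077 scaled counts), LARP7 and ELL2, whose slope differences between these lines did not pass. At that time CCNT1, CCNT2 and CDK9 kept 12.4%, 12.0% and 20.8% of their 0 h mean in the parental line, against 61.7%, 80.1% and 76.7% in CNOT1-AID. At 3 h the parental means were already at 42.8%, 41.2% and 55.6%, lower than a constant rate with the half-lives above would leave.

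BRD2 had the steepest decay of the members. It fell from 9972 and 5579 scaled counts to 733 and 603 in the parental line, a half-life of 3.54 h (3.17 to 4.00 h), and from 11021 and 11934 to 7328 and 6084 in CNOT1-AID. ELL fell from 949 and 427 to 165 and 150 in the parental line, a half-life of 6.05 h (5.17 to 7.30 h), and went from 1204 and 1420 to 1153 and 1000 in CNOT1-AID. The wide parental 0 h pair is visible in both genes, with replicate 1 the higher, as for HEXIM1, CDK9 and SUPT5H. For CCNT1, CCNT2, LARP7 and ELL2 replicate 2 was the higher, so the pair differed gene by gene. At 3 h the parental means of BRD2 and ELL were 33.2% and 46.2% of 0 h. These too are lower than a constant rate with their half-lives would leave.

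LARP7, ELL2 and SUPT5H had parental slopes of -0.058 ± 0.028, -0.044 ± 0.024 and -0.017 ± 0.025, which did not pass against 0 in the edgeR fit (adjusted p = 0.09, 0.13 and 0.63). Their 12 h means were 61.8%, 70.0% and 85.3% of 0 h. SUPT5H, for example, stood at 5199 and 2768 scaled counts at 0 h and at 3719 and 3077 at 12 h, groups that overlapped. With TMM in place of spike-in scaling its slope turned positive (0.051), since that scaling sets each transcript against the falling majority. LARP7 passed without the 0 h libraries (-0.097) and without parental 0 h replicate 1 or parental 6 h replicate 2 (-0.075 and -0.064).

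**Figure D3:**
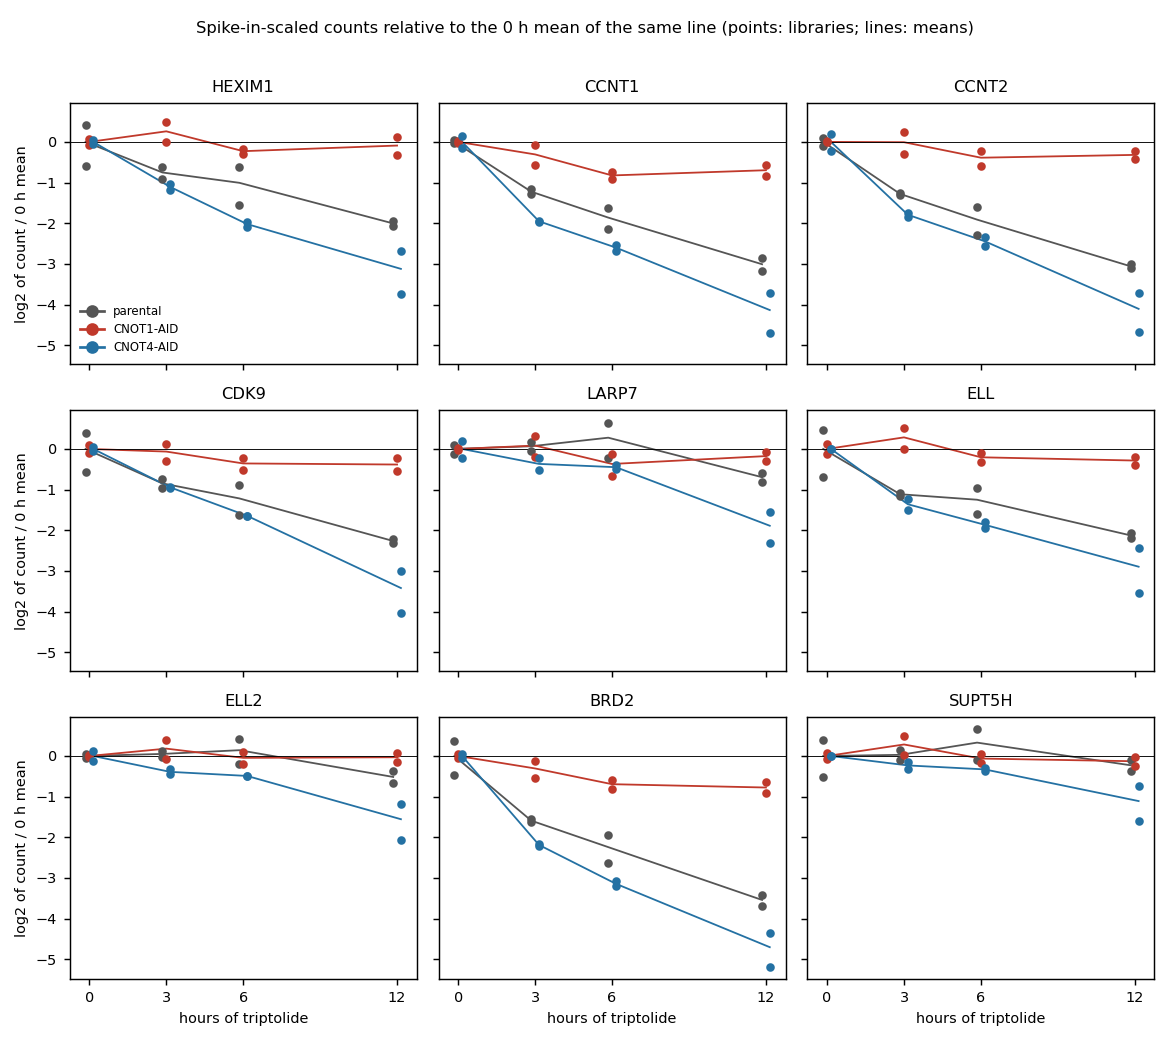
Log2 of spike-in-scaled counts relative to the 0 h mean of the same line (y axis) against hours of triptolide (x axis); points are libraries and lines join the means of 2. Parental and CNOT4-AID curves fall steeply for BRD2, CCNT1, CCNT2, CDK9, ELL and HEXIM1, while the CNOT1-AID means stay at 58.4% (BRD2) to 97.9% (ELL2) of 0 h at 12 h.

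Within lines all 9 slope estimates were below 0, and 6 of them passed as different from 0 in the parental line (46.3% of 16858 genes passed in either direction, 45.5% below 0), 0 of 9 in CNOT1-AID (12.5%) and 9 of 9 in CNOT4-AID (85.2%, 85.1% below 0). For CNOT1-AID, edgeR gave 1 member at an unadjusted p under 0.05 (CCNT1) and DESeq2 gave 0 past the adjusted threshold, while CCNT1 passed without the 12 h libraries (-0.137) and ELL2 as positive with TMM (0.029). The median slope of the members was -0.165 in the parental line, -0.031 in CNOT1-AID and -0.256 in CNOT4-AID, beside -0.068, -0.032 and -0.147 over all genes tested.

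Tested between lines, 6 members decayed more slowly in CNOT1-AID than in parental cells, where 17.4% of genes passed in either direction and 16.4% as slower. They were BRD2 (slope difference 0.219 ± 0.043), CCNT2 (0.216 ± 0.035), CCNT1 (0.185 ± 0.036), CDK9 (0.148 ± 0.033), HEXIM1 (0.143 ± 0.036) and ELL (0.130 ± 0.039, edgeR, adjusted p = 0.014). LARP7 (0.037 ± 0.038), ELL2 (0.036 ± 0.033) and SUPT5H (-0.004 ± 0.035) did not pass. All 6 are among the 7 that rose at 8 h of auxin, SUPT5H being the other one. The share of all genes with both calls was not counted, so this overlap has no background to be set against. Over shorter windows fewer passed, 2 without the 12 h libraries and 3 without the 0 h libraries, and ELL also did not pass without parental 0 h replicate 1 (0.082) or CNOT1-AID 12 h replicate 1 (0.123).

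Between CNOT4-AID and parental cells all 9 estimates were below 0, from -0.10 ± 0.034 (CDK9) to -0.066 ± 0.038 (ELL), and none passed (edgeR; 2.97% of genes passed). Between them lay LARP7 (-0.097), HEXIM1 (-0.096), BRD2 (-0.094), CCNT1 (-0.088), CCNT2 and ELL2 (both -0.083) and SUPT5H (-0.075). At an unadjusted p under 0.05 8 of the 9 passed, and DESeq2 called 4. The median over all genes was itself -0.079, beside -0.088 over the members. The CNOT4-AID libraries at 12 h carried the largest spike-in shares of the set, and without CNOT4-AID 12 h replicate 1, which leaves the 3.92% library alone at that time, 9 members passed. In addition 4 passed without parental 0 h replicate 1, without parental 6 h replicate 2 and without parental 12 h replicate 2. Under TMM scaling 1 gene in all passed as slower and 15 as faster in this contrast.

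Between CNOT1-AID and CNOT4-AID 8 members had a higher slope in CNOT1-AID (46.6% of genes passed, 46.4% as higher), from 0.118 ± 0.033 (ELL2) to 0.313 ± 0.043 (BRD2), and SUPT5H did not pass (0.071 ± 0.035, edgeR, adjusted p = 0.086). The calls of LARP7 and ELL2 were lost with TMM scaling (0.029 and 0.015) and without the 12 h libraries (0.012 and 0.073), and that of ELL without the 0 h libraries (0.116). SUPT5H passed without CNOT1-AID 3 h replicate 2 (0.080) and without CNOT4-AID 12 h replicate 1 (0.098).

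**Figure D4:**
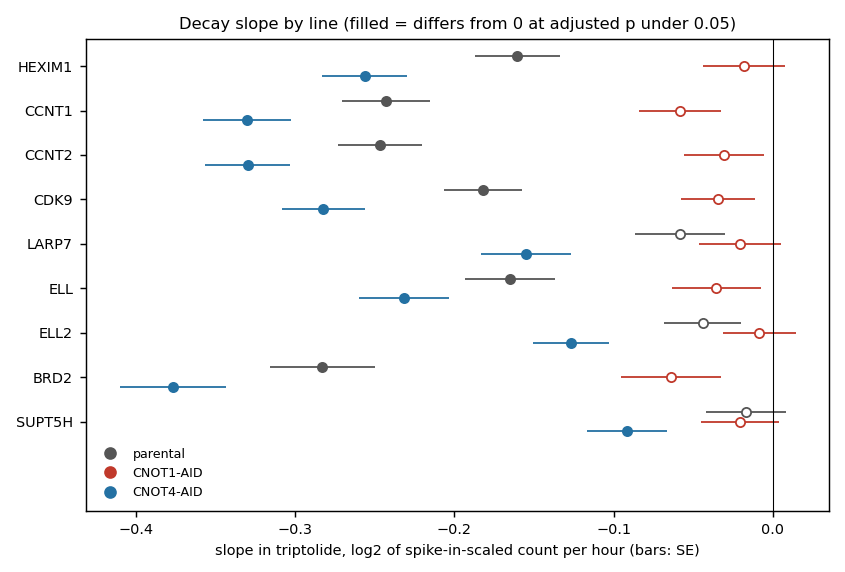
Slope of each gene in each line over 0 to 12 h of triptolide, in log2 units of spike-in-scaled count per hour (x axis); bars are SE and filled points differ from 0 at an adjusted p under 0.05 (edgeR). CNOT1-AID slopes lie between -0.064 (BRD2) and -0.009 (ELL2), all open, and CNOT4-AID slopes between -0.377 (BRD2) and -0.091 (SUPT5H), all filled.

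The 0 h libraries, taken after 2 h of auxin and no triptolide, give the level at that time. Since none of them went without auxin, an early response and a standing difference between lines cannot be told apart. CNOT1-AID exceeded the parental line for CCNT1 (0.48 ± 0.11, 1.4-fold), CCNT2 (0.55 ± 0.14, 1.47-fold) and ELL (0.60 ± 0.17, 1.51-fold) in the edgeR fit with TMM scaling, 3 of 9 members beside 14.5% of genes in either direction and 9.61% as higher. HEXIM1 (0.22 ± 0.15), CDK9 (0.27 ± 0.14), LARP7 (0.29 ± 0.15), BRD2 (0.21 ± 0.11), ELL2 (-0.06 ± 0.11) and SUPT5H (-0.17 ± 0.12) did not pass. These calls changed with single libraries. Without parental 0 h replicate 1, 6 members passed, HEXIM1 (0.57), CDK9 (0.59) and BRD2 (0.45) among them, and 0 passed in a fit of the 0 h libraries alone or without CNOT1-AID 0 h replicate 1. For CNOT4-AID none passed (11.9% of genes), with differences of 0.19 (CCNT1), 0.17 (LARP7), 0.15 (BRD2), 0.12 (HEXIM1), 0.08 (CCNT2), 0.07 (CDK9 and SUPT5H), 0.03 (ELL2) and -0.01 (ELL). The count was 5 without parental 0 h replicate 1 and 6 without replicate 2, and the sign for ELL turned from -0.37 without replicate 2 to 0.40 without replicate 1. At an unadjusted p under 0.05 edgeR gave 0 for CNOT4-AID with all libraries, and DESeq2 called 0.

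A wider list of 34 elongation genes, all of them measured, gives the setting. Like the members, the list was chosen with earlier results of these data known, so its counts are descriptions. With CNOT1-AID auxin 21 were higher and 7 lower at 8 h (median 0.35) and 24 higher and 8 lower at 24 h (median 0.46). Over all genes tested 33.1% were higher and 29.8% lower at 8 h, and 36.7% and 34.8% at 24 h. With ERCC scaling the counts in the list were 28 and 0 at 8 h and 25 and 3 at 24 h, beside 7764 and 1437, and 6877 and 2925, of all 14921 genes. In the parental line no gene of the list passed, and in CNOT4-AID none at 8 h and 1 at 24 h, CCNH of the kinase CAK (0.47 ± 0.12), beside 0.288% and 4.51% of genes.

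Among the partners of P-TEFb on 7SK, MEPCE, which caps the 7SK RNA, rose by 1.42 ± 0.07 at 8 h, and HEXIM2, the paralog of HEXIM1, rose by 1.79 ± 0.13 at 24 h. The 7SK RNA itself (RN7SK) fell by 0.42 ± 0.09 (limma, adjusted p = 0.00057) at 8 h and by 0.24 ± 0.09 (adjusted p = 0.024) at 24 h. RN7SK went from 41469 and 39704 TPM to 37312 and 37102 TPM at 8 h and from 44544 and 42628 TPM to 46677 and 42005 TPM at 24 h, so that its fall was relative to the median gene and its TPM overlapped at 24 h. Auxin gave RN7SK differences of -0.15 and 0.04 in the parental line and of 0.09 and 0.05 in CNOT4-AID at 8 h and 24 h, none past the threshold. Against the parental response the CNOT1-AID response of RN7SK did not pass (-0.27 ± 0.13, adjusted p = 0.081, and -0.28 ± 0.13, adjusted p = 0.067, limma). Against that of CNOT4-AID it was lower at 8 h (-0.51 ± 0.13, adjusted p = 0.0026) and did not pass at 24 h (-0.29 ± 0.13, adjusted p = 0.053). Its slopes did not pass in any line (parental 0.032 ± 0.022, CNOT1-AID -0.016 ± 0.022, CNOT4-AID -0.046 ± 0.023), nor did its slope differences from the parental line (CNOT1-AID -0.048 ± 0.031, CNOT4-AID -0.079 ± 0.032) or its 0 h differences (0.15 ± 0.16 and -0.06 ± 0.16).

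In the super elongation complex ELL3 rose by 1.45 ± 0.10 at 8 h and 1.83 ± 0.10 at 24 h, and the acetyl-lysine reader MLLT1 fell by 0.43 ± 0.11 and 0.99 ± 0.11. CDK7, the kinase of TFIIH, rose by 1.25 ± 0.08 and 2.07 ± 0.08. SSRP1 of the histone chaperone FACT fell by 0.55 ± 0.05 and 0.79 ± 0.05, and the cleavage factor TCEA1 fell by 0.43 ± 0.10 and 0.70 ± 0.10. The falls of MLLT1, SSRP1 and TCEA1 are relative to the median gene. With ERCC scaling 0 genes of the list passed as lower at 8 h and 3 at 24 h, and without scaling 1 and 4. Between 8 h and 24 h the rise grew most for MLLT3 (0.91 ± 0.12), CDK7 (0.82 ± 0.12) and NELFA (0.64 ± 0.12).

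In triptolide 11 of the 34 decayed more slowly in CNOT1-AID than in parental cells and 0 faster (16.4% of all genes were slower), led by CDK7 (0.294 ± 0.040), MEPCE (0.248 ± 0.066) and HEXIM2 (0.245 ± 0.049). These counts moved with the setting. With TMM scaling 14 were slower and 6 faster, beside 3448 and 2634 of all genes. With library totals they were 21 and 1 (4816 and 577 of all genes), and without the 12 h libraries 1 and 0 (747 and 53). Within lines, 20 of the 34 fell in the parental line, 0 in CNOT1-AID and 33 in CNOT4-AID, beside 45.5%, 12.5% (either direction) and 85.1% of all genes. At 0 h 9 of the list were higher in CNOT1-AID than in parental cells (9.61% of all genes), led by HEXIM2 (0.98 ± 0.32), LEO1 (0.89 ± 0.13) and AFF1 (0.68 ± 0.07), and 7 in CNOT4-AID, led by LEO1 (0.72 ± 0.13), where 11.9% of all genes passed in either direction. In CNOT4-AID 0 of the list were lower, so the 7 of 34 also count either direction, as the 11.9% does. Both 0 h counts rest on the parental 0 h pair, which moved the calls of members above.

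Among 9471 genes with a mean of at least 5 TPM, the genes whose log2 levels ran closest to HEXIM1 over the 24 steady-state libraries were PPAN, ZNF574 and SPATA2 (Pearson r = 0.995, 0.994 and 0.994). For CCNT1 they were ZBTB24, EXOC8 and USP42 (0.993, 0.991 and 0.990), and for ELL they were TMEM177, CBFA2T2 and RSBN1 (0.996, 0.994 and 0.993). All points share their libraries, and these values rest on the 4 auxin-treated CNOT1-AID libraries standing apart from the other 20, so they describe the contrast and carry no test.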

How the data were processed

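Per the labels, 500 ng of DNase-treated total RNA with ERCC spike-ins went into each library. Per the submitters' processing notes STAR 2.5.1b, RSEM, featureCounts, SAMtools and DESeq2 were used with hg38; which tool made which table, and whether counting used strand, is not given in the sources used here. The authors' deposited steady-state table holds TPM per gene, and their deposited triptolide table holds raw counts per gene. Ensembl identifiers were matched to GENCODE 29 symbols.

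Steady-state TPM were scaled with TMM, filtered to at least 1 TPM in 2 libraries (14921 genes), put on the scale log2(TPM + 0.5) and fitted with limma 3.58.1 (trend, robust) over 12 groups. A fold on that scale understates the change of low genes. For the triptolide counts (16858 genes after filterByExpr), edgeR 4.0.16 gave 1 slope per line by its quasi-likelihood test with robust estimation, using size factors from the 56 of 92 ERCC sequences averaging at least 10 counts. The 0 h levels used TMM over 12 groups. All adjusted p-values are Benjamini-Hochberg values over the genes tested in 1 contrast, 20 contrasts being planned, with a threshold of 0.05. On simulated data the fits called 97.5% of 200 genes changed by 1 log2 unit (steady state, 8 h), 92% of slope changes of 0.15 per hour and 59.5% of 1 log2 unit at 0 h. Only genes above a minimum level were changed. The simulated triptolide counts had the same dispersion for every gene and the same slope before changes. No simulated library had the extra spread of the parental 0 h pair, so recovery in the real libraries may be lower.

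The rule for named genes was all 9 members in each comparison, RN7SK and up to the 3 largest rises and 3 largest falls past the threshold of the 34 listed elongation genes, and for likeness the 3 highest correlations. Where few or no members passed, some are given by their range only, and the listed genes are described for the main comparisons rather than for each. The members and lists were chosen with earlier results of these data known. Alternatives were other scalings, pseudocounts, filters, tools, fewer time points, a replicate block and leaving out single libraries.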

Additional observations from a re-analysis of the deposited data

Results flagged for a closer look

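Several members responded differently between lines or times, by tests of the difference itself (limma or edgeR, adjusted p under the threshold); no explanation was tested. The auxin response of CNOT1-AID minus parental at 8 h differed for HEXIM1 (1.54), CCNT1 (1.62), CCNT2 (1.25), CDK9 (1.34), ELL (1.82), ELL2 (-0.79) and BRD2 (0.99). At 24 h it differed for HEXIM1 (1.77), CCNT1 (1.53), CDK9 (1.63), ELL (2.31), ELL2 (-0.75), BRD2 (1.16) and SUPT5H (0.58).

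For CNOT1-AID minus CNOT4-AID the 8 h response differed for HEXIM1 (1.63), CCNT1 (1.55), CCNT2 (1.46), CDK9 (1.30), ELL (1.96), BRD2 (1.01) and SUPT5H (0.27). At 24 h it differed for HEXIM1 (1.93), CCNT1 (1.38), CDK9 (1.66), LARP7 (-0.70), ELL (2.37), ELL2 (-0.80), BRD2 (1.19) and SUPT5H (0.73). The response of CNOT1-AID at 24 h minus 8 h differed for CCNT2 (-1.06), CDK9 (0.33), ELL (0.40) and SUPT5H (0.41).

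Decay slopes, in log2 units per hour, differed between CNOT1-AID and parental cells for HEXIM1 (0.143), CCNT1 (0.185), CCNT2 (0.216), CDK9 (0.148), ELL (0.130) and BRD2 (0.219). Between CNOT1-AID and CNOT4-AID they differed for HEXIM1 (0.239), CCNT1 (0.272), CCNT2 (0.299), CDK9 (0.248), LARP7 (0.134), ELL (0.196), ELL2 (0.118) and BRD2 (0.313).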

How the results depend on the processing

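Counts of members past the threshold, with the cause not tested in any case unless stated, moved as follows. ERCC scaling gave 1 for CNOT4-AID at 24 h against 0, as did a minimum of 5 TPM, 1 against 4 for CNOT1-AID at 24 h minus 8 h, and 0 against 1 for untreated CNOT1-AID minus parental, as did no scaling and no filter on low values. Without scaling, untreated CNOT4-AID minus parental gave 6 against 3, and CDK9 (-0.039), ELL (-0.21) and SUPT5H (-0.064) changed sign. For the slope of CNOT1-AID minus parental, 2 passed without 12 h and 3 without 0 h against 6, fits that hold fewer libraries. DESeq2 called 4 slopes of CNOT4-AID minus parental against 0. With TMM the slopes of SUPT5H in parental (0.051) and CNOT4-AID cells (0.049) and of ELL2 in CNOT1-AID (0.029) and CNOT4-AID (0.014) turned positive, as did SUPT5H in CNOT4-AID with library totals (0.0096). Within CNOT1-AID 1 slope passed with TMM (ELL2) and 1 without 12 h (CCNT1, -0.137) against 0. The 0 h libraries alone gave 0 against 3 for the 0 h level of CNOT1-AID.

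When single libraries were left out, the count ranged from 2 (without CNOT1-AID auxin 8 h replicate 1) to 5 (without CNOT1-AID untreated 8 h replicate 2) for CNOT1-AID at 24 h minus 8 h, and from 0 to 3 (again without CNOT1-AID untreated 8 h replicate 2) for untreated CNOT1-AID minus parental. It ranged from 0 to 9 for the slope of CNOT4-AID minus parental, and from 0 to 6 for the 0 h level of both CNOT1-AID and CNOT4-AID. There, without parental 0 h replicate 2 or replicate 1, the 0 h level of CNOT4-AID went from -0.37 to 0.40 for ELL and from -0.18 to 0.34 for SUPT5H. Outside the slopes within lines, the other counts of members, 147 under other settings and 137 with a library left out, stayed within 1.5 times those reported.

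Over all genes, 4933 rose and 4441 fell in the auxin response CNOT1-AID 8 h; scaled to ERCC these became 7764 and 1437, and unscaled 6624 and 2251. The auxin response CNOT1-AID 24 h gave 5472 and 5198, scaled to ERCC 6877 and 2925, and unscaled 6546 and 3564. The decay slope CNOT1-AID minus parental gave 2768 higher and 171 lower, and 3448 and 2634 with TMM. The decay slope CNOT4-AID minus parental gave 1 and 500, and 0 and 0 without CNOT4-AID 12 h replicate 2.

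Libraries of a line share only a replicate number (correlations of deviations -0.207 to 0.102 in steady state). With the replicate block 8 members passed in the auxin response CNOT1-AID 8 h and 7 in the auxin response CNOT1-AID 24 h, as without it, and the calls of ELL at 24 h minus 8 h (0.40) and of SUPT5H in CNOT1-AID minus CNOT4-AID at 8 h (0.27) were lost. Crossed numbers, a pairing chosen after seeing the data for CNOT1-AID at 8 h, gave 4846 higher and 4355 lower over all genes.

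The depth behind TPM is unknown. At 0 h the simulated recovery of 59.5%, found without the extra spread of the parental pair, limits what the absence of a call can show.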
